A study of Mus musculus with 8 samples.

Results

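The question was whether diesel exhaust (DE) changed gene expression in the olfactory bulb differently in mice reared in standard cages and in mice reared in environmental enrichment. For every gene, the DE difference in enriched rearing (EE-DE minus EE-C) minus the DE difference in standard cages (C-DE minus C-C) was taken on the log2 scale. This value is called the interaction below. It is positive when the DE difference in enriched mice was above that in standard cages, and negative when it was below. Of 34797 gene names on the array outside the control spots, all of which belong to the comparison, 21695 were measured, that is, had a probe well above background on all 8 arrays, and 13102 were not.

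The mice were male C57BL/6J offspring of dams that entered a standard cage or a larger cage with a running wheel, a small house and toys at gestational day 14. Pups were weaned at postnatal day 27 and stayed in the same kind of cage. For 28 days, from postnatal day 28 to 55, they breathed clean air (C-C and EE-C) or DE with particles at 90 µg/m3, 8 h a day (C-DE and EE-DE). Olfactory bulbs were collected from 56-day-old mice. Each group was pooled, with RNA of 7 mice in C-C and in C-DE, of 8 mice in EE-C and of 9 mice in EE-DE. Each of the 4 pools was hybridized to 2 one-colour Agilent arrays. The C-C pool stands for standard rearing in clean air, C-DE for standard rearing in DE, EE-C for enriched rearing in clean air and EE-DE for enriched rearing in DE.

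Because a group is 1 pool, its arrays show technical spread and no variation between mice, so no test and no p-value could be given. Values are log2 intensities relative to the 75th percentile of the array. An interaction is given with its range over the 16 choices of 1 array from each pool, and with a technical standard error from the differences between duplicate arrays. A gene was called when its interaction was past 1.5-fold (0.585 on the log2 scale). It was called in every choice when all 16 choices lay past 1.5-fold the same way. Spots in 1 corner of EE-C array 1 were set aside, so that the EE-C value of 267 genes rests on the second array alone. For those genes 8 choices remain, and their range holds no spread between EE-C duplicates.

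The olfactory bulb is the first relay of smell in the brain. Axons of olfactory sensory neurons leave the nasal mucosa, cross the bone of the skull and end in the glomeruli, where mitral and tufted cells receive them and local GABAergic and dopaminergic neurons shape the signal. In the mucosa itself, sensory neurons stand among supporting cells rich in xenobiotic-metabolizing enzymes, and glands beneath them secrete odorant-binding and antimicrobial proteins. The labelled tissue carried the markers of the bulb: all 40 listed markers of mitral and tufted cells, GABAergic interneurons, dopaminergic periglomerular neurons and neuroblasts were measured. Markers of mucosal supporting cells were measured as well, 11 of 17, of which 15 had a probe of their name. Of all gene names, 62.3% were measured.

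Of the 21695 genes, 231 had an interaction at least 1.5-fold higher (1.06%) and 96 at least 1.5-fold lower (0.442%). The balance turned when spots had to be well above background in only 1 pool or more, with 617 higher and 890 lower. The median interaction was −0.01 and the SD across genes 0.202. The median technical standard error was 0.107, but noisy genes weigh on an SD and hardly on a median, so it cannot be set against that SD. Across genes, the SD between duplicates was smallest for the C-DE pool, at 0.165, and largest for the EE-C pool, at 0.238. The SD of the interaction lay between these values, and the part of it due to duplicate spread was not tested. Only 130 of the 231 and 44 of the 96 had the same sign in all 16 choices. That sign was shared by the 16 choices in 7.31% of all genes upward and 8.91% downward. In every choice, 19 genes were past 1.5-fold (0.0876%), 13 of them higher and 6 lower. Among the 13, Bpifb3 was measured on 7 arrays and so had 8 choices. With the corner of the first EE-C array kept, 18 genes were past 1.5-fold in every choice. For comparison, duplicates of a pool were themselves at least 1.5-fold apart for 240 genes of the C-C pool, 209 of C-DE, 419 of EE-C and 370 of EE-DE.

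Called genes were mostly dim and noisy. The lowest of 4 equal classes of signal held 168 of the genes called higher and 73 of those called lower, and the brightest held 3 and 2. The median technical standard error was 0.532 over the called genes. At least 1 duplicate pair lay 1.5-fold apart for 162 of the 231 higher and 67 of the 96 lower genes, and the widest pair was that of EE-C in 95 and 50 of the genes called. Without the second C-C array 347 genes were higher, and without the second EE-C array 410. The count of lower genes was 176 without the first C-C array, 182 without the first C-DE array, 168 without the second EE-C array and 256 without the second EE-DE array.

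The genes called differed in the pool that carried the difference. Among the 231 higher genes, 21 were past 1.5-fold in opposite directions, lower in C-DE/C-C and higher in EE-DE/EE-C. Another 44 were past 1.5-fold in C-DE/C-C alone, 52 in EE-DE/EE-C alone and 114 in neither. Among the 96 lower genes the opposite pattern was found for 2, while 19 were past 1.5-fold in C-DE/C-C alone, 46 in EE-DE/EE-C alone and 29 in neither. The exposure differences in the standard cage and in enrichment share no array. Across all genes, which are not independent replicates, their Pearson's r was 0.16.

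**Figure D1:**
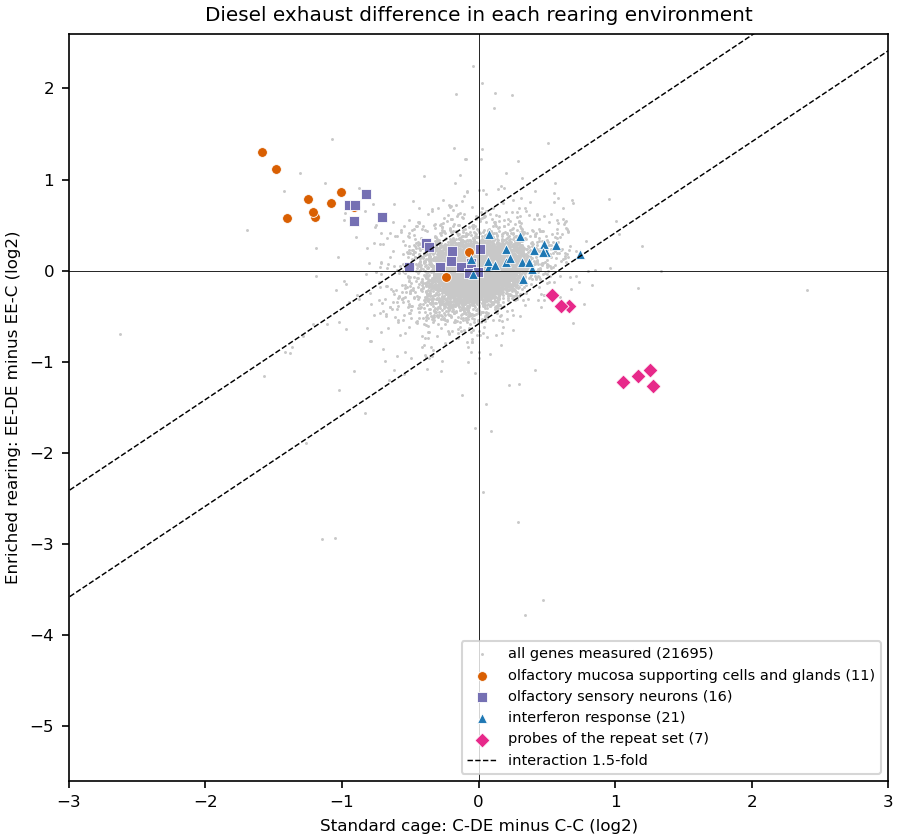
Difference between exposed and clean-air pools (log2) in standard cages on the horizontal axis and in enriched rearing on the vertical axis, 1 point per gene, with the 2 dashed lines at a 1.5-fold interaction. Of the marker genes, 9 of 11 for mucosal supporting cells and 7 of 16 for olfactory sensory neurons lie above the upper line, the 7 probes of the repeat set lie at the lower right, and the 21 interferon response genes lie between the lines, mostly to the right of 0.

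The largest negative interactions called in every choice belonged to predicted genes whose probes share stretches of sequence. The array names them by Ensembl transcripts and as predicted genes Gm10715, Gm10716, Gm10718, Gm10720 and Gm10800. They were singled out after their values were seen, and the 7 measured probes of these 5 genes form what is called the repeat set below. Their 60-base sequences are shown so that the shared stretches can be seen. They are printed 5′ to 3′ with capitals on every stretch of 12 bases that also stands in at least 2 of the other 6 probes. Overlapping stretches join, so a longer capital run need not stand whole in another probe. Positions are those of the array's annotation on mm9.
Gm10800, chr2:98507096-98507154, minus strand: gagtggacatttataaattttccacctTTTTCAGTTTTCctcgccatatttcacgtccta
Gm10720, chr9:3004200-3004259, plus strand: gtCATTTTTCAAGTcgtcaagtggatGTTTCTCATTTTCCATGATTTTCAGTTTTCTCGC
Gm10715, chr9:3038257-3038316, plus strand: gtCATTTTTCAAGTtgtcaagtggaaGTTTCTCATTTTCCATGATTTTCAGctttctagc
Gm10718, chr9:3024224-3024283, plus strand: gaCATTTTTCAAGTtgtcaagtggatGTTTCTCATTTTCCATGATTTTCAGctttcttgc
Gm10800, chr2:98507014-98507072, minus strand: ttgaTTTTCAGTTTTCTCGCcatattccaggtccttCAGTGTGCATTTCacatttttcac
Gm10716, chr9:3030720-3030779, plus strand: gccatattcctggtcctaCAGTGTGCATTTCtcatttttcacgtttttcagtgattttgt
Gm10720, chr9:3003722-3003781, plus strand: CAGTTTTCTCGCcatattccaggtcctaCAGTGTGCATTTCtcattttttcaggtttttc

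As background, stretches of this kind are known from the major satellite, the tandem repeat of mouse pericentromeric chromatin. The array files do not name the probes as such, and no genome was at hand to count their copies. The lines at the second to the fourth place share the run GTTTCTCATTTTCCATGATTTTCAG and are nearly copies of each other. Those at the fifth to the seventh place share the shorter run CAGTGTGCATTTC. The first line has a single marked stretch, TTTTCAGTTTTC, which also stands in the second and the fifth. The set was found by a search for words of 16 bases. These were taken from the probes of Gm10715, Gm10716, Gm10718 and Gm10800 (chr2:98507014) that were called lower in every choice. Among 55681 noncontrol probes, 2 outside the genes of the set shared such a word, 1 word each, and their interactions were 0.08 and 0.06. Words found only in the other probes of the set were not searched. Probes that share such stretches can bind the same RNA, so the 7 probes are not 7 independent measurements.

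All 7 probes of the repeat set were higher in C-DE than in C-C and lower in EE-DE than in EE-C, whichever arrays were paired. For Gm10718, signal was −2.24 and −1.52 in C-C, −0.81 and −0.85 in C-DE, −1.08 and −1.65 in EE-C and −2.70 and −2.46 in EE-DE. The C-DE arrays were above and the EE-DE arrays below all others. Its exposure difference was 1.05 in standard cages and −1.22 in enrichment, so the interaction was −2.27 (range −3.06 to −1.49, technical standard error 0.476), 4.83-fold lower.

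Gm10715 read −2.85 and −2.20 in C-C, −1.33 and −1.38 in C-DE, −1.71 and −2.32 in EE-C and −3.51 and −2.85 in EE-DE, an interaction of −2.33 (range −3.31 to −1.35). Again both C-DE arrays were the highest of the 8, while the lower C-C array and the upper EE-DE array read nearly the same. Gm10720 had probes in both groups of sequences: the probe at chr9:3004200 had an interaction of −2.34 (range −3.26 to −1.43) and that at chr9:3003722 one of −0.81 (range −1.07 to −0.54). The brighter probe, with signal from 0.57 to 1.47, thus had the smaller interaction of the pair.

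The probes of Gm10800 differed in the same way. The probe at chr2:98507096 read −2.22 and −1.53 in C-C, −0.65 and −0.54 in C-DE, −0.93 and −1.54 in EE-C and −2.64 and −2.35 in EE-DE, and its interaction of −2.54 (range −3.39 to −1.69) was the largest of the set. The probe at chr2:98507014 had an interaction of −1.05 (range −1.42 to −0.67). Gm10716 had one of −0.998 (range −1.36 to −0.64). The 3 probes that share the run CAGTGTGCATTTC were those with the smallest interactions, and the highest bound over the whole set was −0.54.

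**Figure D2:**
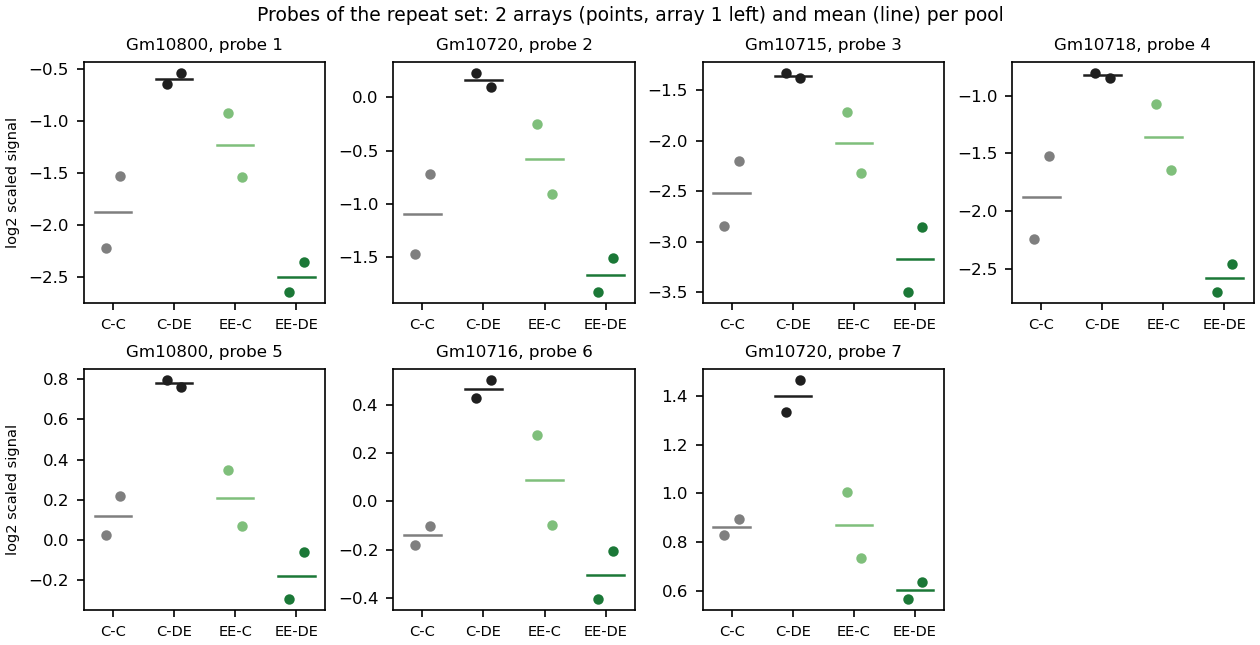
Signal of the 7 probes of the repeat set (log2 intensity relative to the 75th percentile of the array) in the 4 pools, in the order in which their sequences are listed, with array 1 at the left and array 2 at the right of each pool and a line at their mean. In each panel both C-DE arrays are the highest of the 8.

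Of the 13 genes called higher in every choice, 3 are on the list of mucosal supporting cells and glands, 2 on that of olfactory sensory neurons, 1 on that of nasal gland secretions and 1 on that of neuropeptides, and the other 6 are on no list of a cell type or function. Cyp2g1, a cytochrome P450 of the olfactory mucosa (probe at chr7:27606111-27606170), led with 2.88 (range 0.75 to 5.02, technical standard error 1.23), 7.38-fold higher. Its signal was 1.44 and 0.44 in C-C, −0.86 and −0.44 in C-DE, 1.27 and −0.79 in EE-C and 1.14 and 1.94 in EE-DE. C-DE lay below C-C on every pairing. In enrichment the first EE-C array was above the first EE-DE array, so those pools overlapped. Without the second EE-C array the interaction was 1.85.

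Sec14l3, a lipid transfer protein of the SEC14 family (chr11:3978896-3978955), had an interaction of 2.59 (range 0.66 to 4.53). It read 0.54 and −0.19 in C-C, −1.68 and −0.93 in C-DE, 0.36 and −1.29 in EE-C and 0.27 and 1.02 in EE-DE. The pattern over the arrays was that of Cyp2g1, with the EE-C duplicates 1.65 apart. A dimmer probe of Sec14l3 had 1.15 (range 0.35 to 1.96).

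Bpifb3, a secreted protein of the BPI fold family, had an interaction of 2.53, with the EE-C value from the second array alone. Its range of 1.59 to 3.46 covers 8 choices and holds no spread between EE-C duplicates. Its signal was 1.32 and 0.17 in C-C, −0.51 and −0.16 in C-DE, −1.31 on that EE-C array and −0.05 and 0.33 in EE-DE. With the corner of the first EE-C array kept, the interaction was 1.25.

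Umodl1, a zona pellucida domain protein found in the olfactory epithelium (chr17:31147589-31147648), read −0.20 and −1.01 in C-C, −2.08 and −1.75 in C-DE, −0.69 and −1.94 in EE-C and −0.59 and 0.11 in EE-DE. Its interaction was 2.38 (range 0.84 to 3.93). Here the pools were apart in both rearing environments, since the lowest EE-DE array was above the highest EE-C array. Mslnl, a relative of mesothelin (chr17:25885141-25885200), behaved alike with 2.09 (range 0.80 to 3.38), from −1.46 and −2.11 in C-C, −2.99 and −2.83 in C-DE, −1.65 and −2.92 in EE-C and −1.57 and −1.07 in EE-DE.

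Krt18 and Krt8 encode the keratin pair of simple epithelia. Krt18 (chr15:101862341-101862400) had an interaction of 2.04 (range 0.68 to 3.40), and Krt8 one of 1.98 (range 0.57 to 3.40), the latter just short of 1.5-fold in its lowest choice and at 1.00 with normexp background correction. Krt18 was −0.71 and −1.44 in C-C, −2.50 and −2.16 in C-DE, −1.06 and −1.92 in EE-C and −1.10 and −0.31 in EE-DE. Both C-DE arrays were the lowest of the 8, and the EE-C and EE-DE arrays overlapped. Muc16, a membrane mucin of epithelia that was named after its values were seen because its probe carries an Ensembl accession, had 2.29 (range 0.65 to 3.94).

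Ano2 and Gm581 are the sensory neuron genes among those called in every choice. Ano2, the calcium-activated chloride channel of olfactory cilia (chr6:125990063-125990122), read −2.41 and −2.82 in C-C, −3.66 and −3.37 in C-DE, −2.58 and −3.45 in EE-C and −2.52 and −2.07 in EE-DE. Its interaction was 1.62 (range 0.62 to 2.63), and the pools did not overlap in either environment. With normexp background correction it was 1.01. Gm581, which the later annotation names Gfy, a Golgi protein of olfactory sensory neurons, had 1.66 (range 0.73 to 2.59), while its dimmer probe had 0.45 (range −0.11 to 1.01). Kirrel2, an adhesion molecule that sorts sensory axons into glomeruli, had 1.34 (range 0.62 to 2.07), or 0.89 with normexp.

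Oxt, the gene of the neuropeptide oxytocin (chr2:130402665-130402724), showed another pattern. It read −2.37 and −3.40 in C-C, −4.06 and −4.10 in C-DE, −4.07 and −4.21 in EE-C and −3.88 and −3.90 in EE-DE. Both C-C arrays were above all others, and the other 6 lay within a narrow band. Its interaction of 1.45 (range 0.83 to 2.06) therefore came from a C-DE/C-C difference of −1.19 and an EE-DE/EE-C difference of 0.25. With normexp it was 0.77, and without the first C-C array 0.93. None of the other 12 neuropeptide genes measured was called.

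E230019M04Rik, a RIKEN transcript of the X chromosome, had an interaction of 0.97 (range 0.63 to 1.32) with narrow duplicates, −4.48 and −4.38 in C-C, −4.98 and −4.78 in C-DE, −5.21 and −5.09 in EE-C and −4.49 and −4.75 in EE-DE. Its signal was among the dimmest reported here, and with normexp background correction the interaction was 0.37. The remaining positive call was the unnamed probe NAP067756-1 with 0.89, named after its value was seen.

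**Figure D3:**
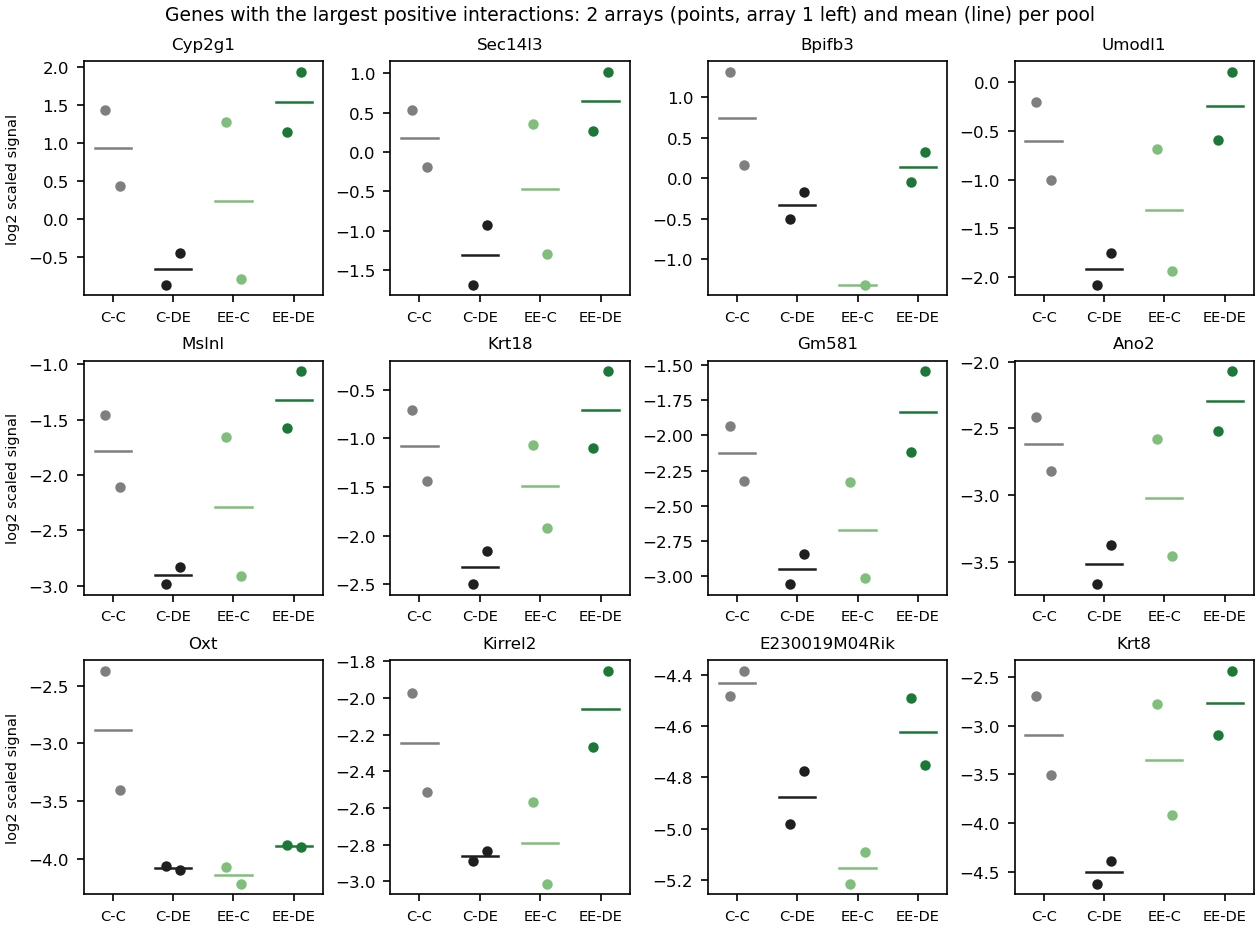
Signal of the 12 genes named for the largest positive interactions (log2 intensity relative to the 75th percentile of the array) in the 4 pools, with array 1 at the left and array 2 at the right of each pool and a line at their mean. Most panels share a low C-DE pair and an EE-C pair that lies wide apart, and Oxt is set apart by its high C-C pair.

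Among genes with a RefSeq or GenBank accession, Ccl24 alone was called lower in every choice. Ccl24 encodes eotaxin-2, a chemokine that draws eosinophils (probe at chr5:136046667-136046726). It read −4.11 and −4.08 in C-C, −3.97 and −3.96 in C-DE, −3.65 and −3.73 in EE-C and −4.43 and −4.37 in EE-DE. The duplicates lay close together in every pool, with the EE-C arrays the highest and the EE-DE arrays the lowest. The exposure difference was 0.13 in standard cages and −0.71 in enrichment, an interaction of −0.83 (range −0.91 to −0.76, technical standard error 0.047), 1.78-fold lower. With normexp background correction it was −0.30 and no longer past 1.5-fold. The sixth lower call, the unnamed probe NAP068989-1 with −0.85, was named after its value was seen.

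The other genes of largest negative interaction kept their sign in every choice but not the 1.5-fold distance. Gm10034, a predicted gene, had −1.14 (range −1.72 to −0.55), with C-DE above C-C and EE-DE below EE-C. Ptprm, a receptor tyrosine phosphatase of cell contacts, had −0.67 (range −0.91 to −0.43) with EE-C from the second array alone. Npm2, a nuclear chaperone of oocytes, had −0.62 (range −0.87 to −0.36) and Slco2a1, a prostaglandin transporter, −0.65 (range −0.98 to −0.33). For both, EE-DE was below EE-C while C-DE differed from C-C by −0.04 and 0.04. Leaving out 1 array ended the call of 3 of the 4: Ptprm was at −0.56 without the second C-DE or the second EE-DE array, Npm2 at −0.51 without the first C-C array and Slco2a1 at −0.45 without the first EE-C array. With normexp all 4 lay between −0.36 and −0.23.

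For several of these genes the value rests on 1 array. Obp1a, an odorant-binding protein of nasal glands, read 1.00 on the second EE-C array and between −2.27 and −1.97 on the other 7, giving −1.70 (range −3.32 to −0.08) and −0.22 without that array. Homer3, a postsynaptic scaffold protein, read −0.03 on the first EE-C array and between −1.83 and −1.66 elsewhere, giving −0.96, and −0.14 without it. A dimmer probe of Homer3 had 0.20 (range −0.05 to 0.45). 6230427J02Rik (−0.99) rests in the same way on the second C-DE array at −2.16, without which it was −0.31. Gm101 (−0.74), Noxa1 (−0.74), an activator of NADPH oxidase, Bhlha9 (−0.73), a transcription factor, and Caps2 (−0.60), a calcium-binding protein, complete the 12. Without the second EE-C array, Gm101 was at −0.33, Bhlha9 at −0.31 and Caps2 at −0.22, and without the first, Noxa1 was at −0.43.

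Among the largest values in size, several rest on 1 array too. The following were looked up after their values were seen. 5430401F13Rik had an interaction of −4.08 with a range of −8.36 to 0.20, since it read 3.84 on the second EE-C array and between −3.69 and −2.57 on the other 7. Ccnt1, a cyclin of transcription elongation, was at 5.03 on that array and between −0.30 and −0.0017 elsewhere. Kdm5d, a histone demethylase gene of the Y chromosome, was at 0.29 on the first EE-DE array alone. Each of these genes was high on 1 array and not on its duplicate. The unnamed probe A_55_P2113187, which had the largest interaction in size (−4.12), read 3.88 on the second EE-C array and between −3.26 and −2.30 elsewhere, a pattern like that of 5430401F13Rik.

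The gene lists place the named genes in groups. Over all genes measured, the median interaction was −0.01, and a list is read beside that value and beside the shares of all genes called. No list was tested. Of the 35 lists, 25 held no gene called in either direction, and their medians lay between −0.18 and 0.17 over 421 genes.

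The mucosal supporting cell and gland list had 9 of its 11 measured genes called higher and none lower, with a median of 1.85 (range over the 16 choices 0.20 to 3.43). Of the 11, 7 had a positive sign in all choices and 3 were called in every choice. Without the second EE-C array the median was 1.14. Its members cover enzymes that act on inhaled compounds, namely Cyp2f2 with 1.82, Cyp2a4 with 1.87, the glucuronosyltransferase Ugt2a1 with 1.78 and the carbonyl reductase Cbr2 with 1.61. The ranges of Cyp2a4 (−0.24 to 3.98) and Ugt2a1 (−0.14 to 3.70) included 0. Cyp2a4 has a near-identical paralog in Cyp2a5, which had no probe of its own name, so the 2 cannot be told apart. The water channel Aqp3 had 1.85. Without the second EE-C array Cyp2f2 was at 1.14 and Aqp3 at 1.22. In the same list, Aqp5, the water channel of gland cells, and Fmo2, a monooxygenase, were at 0.17 and 0.27. Of the members not measured on all arrays, Elf3, Epcam, Hepacam2 and Cyp1a2 had probes.

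Among the olfactory sensory neuron genes, 7 of 16 were called higher and none lower, with a median of 0.48 (range 0.13 to 0.83). The called genes include both other subunits of the olfactory cyclic nucleotide-gated channel, Cnga4 with 1.67 and Cngb1 with 1.45, and the transcription factors Ebf2 with 1.30 and Ebf3 with 0.63. Rtp2, which brings odorant receptors to the membrane, had 0.69. Of the 9 not called, Omp, the olfactory marker protein, had 0.16 (range −0.13 to 0.46), Gng13, a G protein subunit, 0.04 and Adcy3, the adenylyl cyclase of olfactory cilia, 0.14. The principal channel subunit Cnga2 was at 0.55, below the 1.5-fold distance.

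Odorant receptor genes were mostly not measured. Of 1076 on the array, 88 were measured, and their median interaction was −0.03. Olfr536 (1.57, range 0.45 to 2.70), Olfr871 (0.83), Olfr170 (0.61) and Olfr551 (0.60) were called higher and Olfr1466 (−0.74) lower. The nasal gland secretion list had 5 of 9 genes called higher and 1 lower, with a median of 0.60 whose range from −0.69 to 2.04 included 0, and which was −0.10 without the first C-C or the second EE-C array. Apart from Bpifb3, no called gene of that list kept its sign in every choice. Scgb1c1, a secretoglobin, had 1.17 (range −1.16 to 3.51) and Bpifa6 −1.80 (range −4.40 to 0.81).

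**Figure D4:**
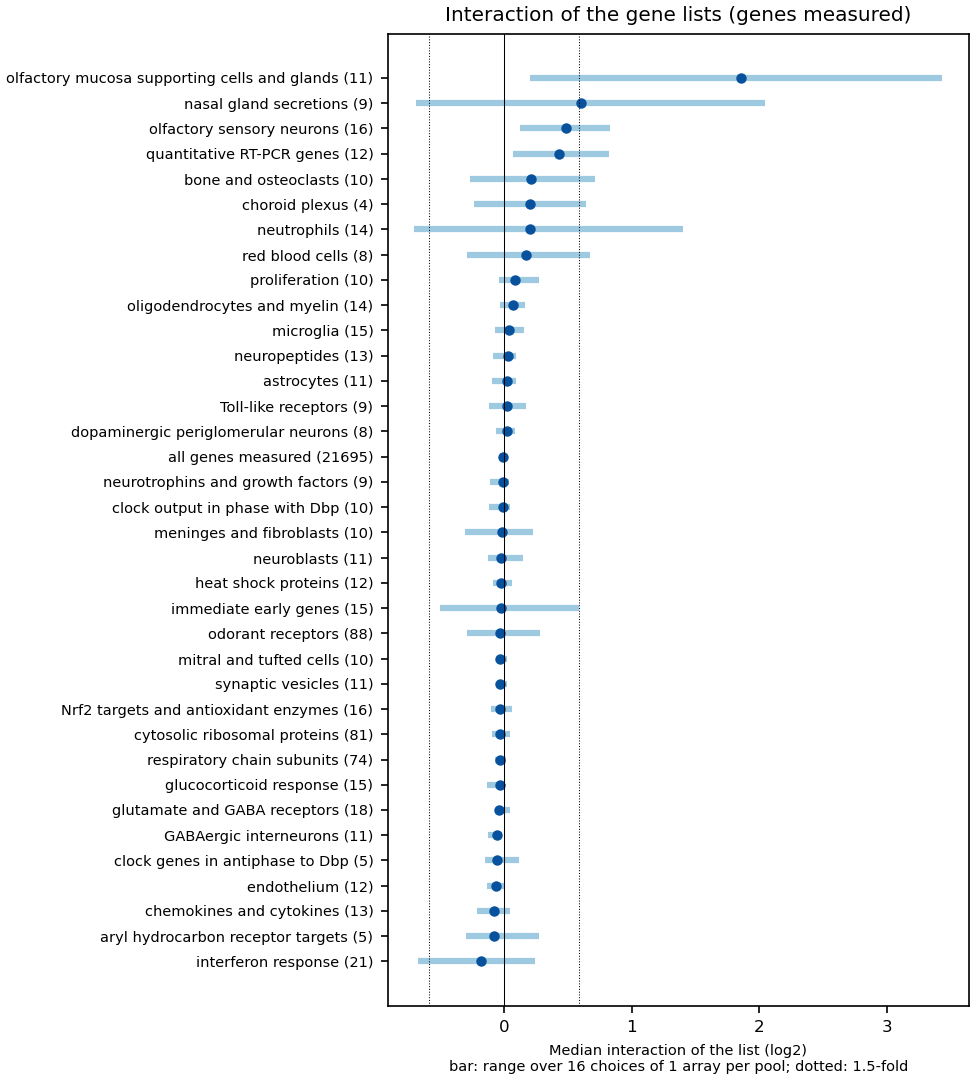
Median interaction (log2, horizontal axis) of each gene list, with the number of genes measured in parentheses and a bar for the range of the median over the 16 choices of 1 array per pool. Supporting cells and glands (1.85), olfactory sensory neurons (0.48) and the quantitative RT-PCR genes (0.43) are the lists whose bar lies above 0.

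The duplicate arrays of a pool also differed for these genes. Each gene was centred on its mean over the 8 arrays, and the mean over the 11 supporting cell and gland genes was 0.61 and −0.20 on the C-C arrays, −0.98 and −0.69 in C-DE, 0.57 and −0.61 in EE-C and 0.31 and 1.00 in EE-DE. The EE-C duplicates of the same RNA pool were thus 1.19 apart, while the EE-DE and EE-C pools overlapped and the C-DE arrays were below all others. For the 16 sensory neuron genes the same means were 0.26 and −0.02, −0.35 and −0.23, 0.10 and −0.22, and 0.13 and 0.34. The part of this spread between duplicates in the interaction was not tested. In bulk RNA, fewer cells of a type and less RNA per cell cannot be told apart.

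The neuron lists of the bulb varied far less. The mean of 10 mitral and tufted cell genes lay between −0.02 and 0.02 on all 8 arrays. The probes of the repeat set moved the other way from the mucosal genes in the pool means, with −0.43 and 0.02 in C-C, 0.73 and 0.74 in C-DE, 0.39 and −0.09 in EE-C and −0.82 and −0.53 in EE-DE. Between duplicates, the first array was the higher for both in EE-C and the lower for both in C-DE and EE-DE, while in C-C it was the higher for the mucosal genes and the lower for the repeat set. On the slide, rearing environment followed the column and exposure the rows. A shift common to a column or to a row cancels in the interaction of the pool means, though a row shift need not cancel in a single choice. A shift of 1 pool's place alone cannot be told apart from the interaction.

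**Figure D5:**
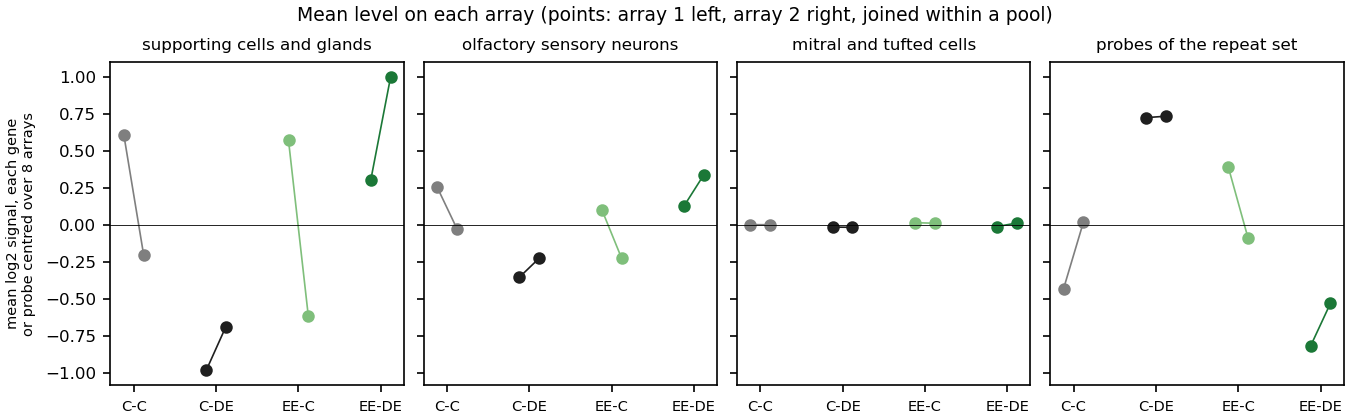
Mean log2 signal on each of the 8 arrays, each gene or probe centred on its mean over the arrays, for supporting cell and gland genes, olfactory sensory neuron genes, mitral and tufted cell genes and the probes of the repeat set. Points of a pool are joined, and the EE-C points of the first list lie at 0.57 and −0.61.

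Other tissues next to the bulb gave wide values. In the bone and osteoclast list 4 of 10 genes were called higher, with Acp5, the osteoclast phosphatase, at 1.04 (range −0.35 to 2.42), Bglap2 at 1.03 and Bglap at 1.00, both osteocalcin genes of near-identical sequence, and the collagen gene Col1a1 at 0.66. Of 14 neutrophil genes 3 were called higher, Hp, S100a8 and Ltf with 0.67, 0.63 and 0.61, and their list median of 0.20 ranged from −0.70 to 1.40 and was 0.89 without the first EE-C array. All 7 of these genes had ranges that included 0. In the meninges and fibroblast list, Col1a1 was the only call of 10 genes. Clic6, a chloride channel protein of the choroid plexus, was called with 0.67 (range 0.30 to 1.04), as 1 of 4 choroid plexus genes. Red blood cell genes had a median of 0.17 and no call among 8.

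The interferon, cytokine, glial and stress lists held no call. Of the 21 interferon response genes none was called, and their median interaction of −0.18 (range −0.67 to 0.24) stood beside median exposure differences of 0.32 in standard cages and 0.13 in enrichment. The median was 0.05 without the second C-DE array and 0.03 without the second EE-DE array. Cxcl10, an interferon-induced chemokine, had the largest of them, −0.55 (range −1.27 to 0.16), from −1.85 and −2.01 in C-C, −1.53 and −0.84 in C-DE, −1.55 and −1.49 in EE-C and −1.08 and −1.59 in EE-DE. It was −0.21 without the second C-DE array, −0.90 without the first, −0.30 without the second EE-DE array and −0.34 with normexp. Chemokines and cytokines (13 genes, Ccl24 not being on that list), Toll-like receptors (9), microglia (15), astrocytes (11), heat shock proteins (12), glucocorticoid response genes (15) and Nrf2 targets (16) had medians between −0.08 and 0.04. For the targets of the aryl hydrocarbon receptor, which senses polycyclic aromatic compounds, 5 of 8 were measured and none called. Their median interaction was −0.08 (range −0.30 to 0.27), and 2 of the 5 were above 0. Ahrr, the repressor of that receptor, had the highest value of the list, 0.46 (range 0.11 to 0.82).

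Lists of neuronal function were near 0 as well. GABAergic interneurons had a median of −0.05, and its range from −0.13 to −0.01 was the one list range wholly below 0, with 4 of 11 genes of negative sign in all 16 choices and none called. Medians were 0.02 for dopaminergic periglomerular neurons, −0.03 for mitral and tufted cells, −0.02 for neuroblasts, −0.03 for synaptic vesicle genes and −0.04 for glutamate and GABA receptors. Immediate early genes had a median of −0.03 with a range from −0.50 to 0.59, wide because the duplicates differed. Clock output genes in phase with Dbp were at −0.01 and those in antiphase at −0.05. Growth factors (−0.01), neuropeptides (0.03), proliferation (0.08), myelin (0.07), endothelium (−0.06), cytosolic ribosomal proteins (−0.03) and respiratory chain subunits (−0.03) held no call beside Oxt.

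Of the 12 genes measured by quantitative RT-PCR in the study, 11 were selected by it from these arrays, so their values are no independent evidence of a direction, and Gapdh was the reference. With each gene shown by its brightest probe, 6 of the 12 were called higher and none lower, the 3 called in every choice being Umodl1, Mslnl and Krt18. Dimmer probes of Chmp4b (−0.93) and Sdad1 (0.80) were past 1.5-fold and are not in that count. The list median of 0.43 was 0.04 among the brighter 75% of genes and 0.28 without the second EE-DE array. Cyp2f2, Aqp3 and Nr1i3, a nuclear receptor of xenobiotic metabolism, had 1.82, 1.85 and 0.82. Nr1i3 differed in its pattern: it read −0.77 and −1.08 in C-C, −2.02 and −1.78 in C-DE, −1.63 and −2.13 in EE-C and −2.33 and −1.74 in EE-DE. C-C was above all others, and EE-DE/EE-C differed by −0.15. Without the second EE-DE array the interaction was 0.53, and without the second EE-C array 0.57.

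Probes of 1 gene did not always give the same value. Chmp4b, a subunit of the membrane-remodelling ESCRT-III complex, had −0.13 with its brightest probe, −0.18 with another and −0.93 (range −1.25 to −0.61) with the dimmest. Sdad1, a nucleolar protein, had 0.04 and 0.80. Fam13c had −0.35 (range −0.52 to −0.18) and 0.02 with its 2 probes, and Dbp, a circadian transcription factor, −0.18 and −0.17. The shown probe of the reference gene Gapdh had −0.17, and its other probes lay between −0.18 and 0.02. Over all genes called higher, 28 had a further measured probe, which was past 1.5-fold the same way for 10, and among the lower genes 4 of 15.

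By kind of transcript, the shares called stood as follows beside 1.06% higher and 0.442% lower over all genes, with no test of the differences. Genes shown by a GenBank accession were called higher for 30 of 1439 (2.08%) and lower for 8 (0.556%). For long intergenic noncoding RNAs named by their position the counts were 39 of 2602 (1.499%) and 27 (1.04%), and for genes shown by a RefSeq accession 133 of 15043 (0.884%) and 40 (0.266%). For Ensembl-only genes they were 11 (1.22%) and 12 (1.33%) of 903, and for the remaining 1708 genes 18 (1.05%) and 9 (0.527%). Of the Ensembl-only genes, 5 were called in every choice, 4 of them from the repeat set and the other Muc16.

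Detection was lower on 1 array. Of 34761 genes with a spot free of outlier flags, 21702 were well above background on both arrays of all 4 pools and 8937 on those of no pool. In all pools but EE-DE, 2665 were detected. That pool holds the first EE-DE array, on which 56.7% of noncontrol spots were well above background against at least 68.0% on the other 7 and whose median background was 29 against 21 to 24. Only 8 genes were detected in all pools but C-C, 6 in all but C-DE and 3 in all but EE-C.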

How the data were processed

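Olfactory bulb RNA was measured on 8 one-colour Agilent arrays of 1 slide, 2 for each of 4 pools, grouped by the labels. The authors deposited processed signal intensities from Agilent Feature Extraction 10.7.3.1, which, per the file headers, are background-subtracted and detrended within each array and not scaled between arrays. Probes were annotated on mm9. The authors' deposited series table holds log2 values. With the scaling given below and each probe's median taken off, the scanner values of 99.6% of 30689 probes came within 0.02 of it on all 8 arrays.

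Here, the 75th percentile over noncontrol spots was subtracted from log2 signal. Of 59305 spots, 32996 were well above background on all 8 arrays without a feature outlier flag. Background outlier flags were not used. On the first EE-C array 829 spots of a corner were set to missing. Spots of a probe were averaged, which left 30696 probes, and a gene was shown by its brightest probe. Pool means, the interaction and its range over 16 choices of arrays followed. As each group is 1 pool, no test was made. The number of arrays limits the precision, and no spot was saturated.

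Genes named are, among those with a symbol and a RefSeq or GenBank mRNA accession, the 12 largest interactions in each direction past 1.5-fold in all choices, filled up with the largest of one sign, the genes of the study's quantitative RT-PCR, and members of the 35 gene lists. Other names are marked as chosen later. The comparison, the lists and the rules were chosen with earlier results of these data known. Array gene names were checked against a later RefSeq table (GRCm38.p6), which named 14445 of 15043 RefSeq accessions, 12951 with the same symbol. The alternatives covered background correction (normexp, offset 50), normalization, averaging, filters, threshold and leaving out each array. Python 3.11.15, numpy 2.4.6, pandas 2.3.3, matplotlib 3.10.9, R 4.3.3 and limma 3.58.1 were used. The quantitative RT-PCR values were not analysed here.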

Additional observations from a re-analysis of the deposited data

Results flagged for a closer look

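In the results below, every pairing of an exposed with a clean-air array moved one way in standard cages and every pairing moved the other way in enrichment. The difference between rearing environments was not tested, since each group is 1 pool. With C-DE below C-C and EE-DE above EE-C, these were Bpifb3 (interaction 2.53, EE-C from 1 array), Umodl1 (2.38), Mslnl (2.09), Cnga4 (1.67), Gm581 (1.66), Ano2 (1.62), Oxt (1.45), Kirrel2 (1.34), Ebf2 (1.30), E230019M04Rik (0.97), Rtp2 (0.69) and Ebf3 (0.63). The opposite way, they were Gm10034 (−1.14), Ccl24 (−0.83) and Ptprm (−0.67, EE-C from 1 array).

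All 7 probes of the repeat set showed that opposite pattern, with −2.54 and −1.05 for Gm10800, −2.34 and −0.81 for Gm10720, −2.33 for Gm10715, −2.27 for Gm10718 and −0.998 for Gm10716. Over all 21695 genes, 451 showed the first pattern, 51 of them called, and 463 the second, 12 of them called.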

How the results depend on the processing

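The counts depended on the filter on dim spots and on the background correction. Genes higher, lower and past 1.5-fold in every choice were 231, 96 and 19. They were 82, 33 and 9 with normexp, 839, 732 and 84 with spots positive and significant, 617, 890 and 86 with spots well above background in at least 1 pool, 63, 23 and 9 among the brighter 75% of genes, and 64, 23 and 3 at a 2-fold threshold. With RefSeq or GenBank accessions alone, 49 were lower and 12 past 1.5-fold in every choice. The causes were not tested, apart from the threshold and the filters, which change the genes entering. Leaving out 1 array gave 206 to 410 higher, 103 to 256 lower and 47 to 144 in every choice, where fewer choices remain. Under the other alternatives these 3 counts stayed within 1.5 times. With the corner kept, Bpifb3 had 1.25. List medians moved by more than the spread over the choices in 6 cases under alternatives, among them the RT-PCR genes (0.04) and the choroid plexus (0.67) in the brighter 75% of genes and heat shock proteins (0.02 against −0.02) with quantile normalization, and in 21 cases when 1 array was left out. No gene named for the size of its interaction changed sign under any alternative run. With normexp, Krt8 had 1.00, Ano2 1.01, Kirrel2 0.89 and Oxt 0.77. The calls of E230019M04Rik (0.37), Ccl24 (−0.30), Gm10034 (−0.36), 6230427J02Rik (−0.50), Gm101 (−0.29), Noxa1 (−0.32), Bhlha9 (−0.55), Ptprm (−0.27), Slco2a1 (−0.26), Npm2 (−0.23) and Caps2 (−0.27) were lost with it, and the median of the repeat set was −1.56 against −2.27, an alternative run on that set after seeing the data. No analysis paired by mouse was possible because the 2 arrays of a pool hold the same RNA. Arrays of the same number and exposure shared a slide row across rearing environments, and an analysis matched by row was not run.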
